A study of Mus musculus with 12 samples.

Results

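Lysosome enzymes, membrane proteins and regulators were followed through terminal erythroid differentiation as a set of 30 genes, taken by their symbols from the 29838 genes of the deposited table. The set holds 6 membrane proteins, 8 cathepsins, 5 glycosidases, 4 proteins of lipid handling, 5 subunits or partners of the proton pump and 2 transcription factors. The rule itself uses no measured value, but the genes were chosen with earlier results of these data known. All 30 passed the filter on low values. The erythroblasts whose RNA was sequenced came from bone marrow of wild type (WT) male C57BL/6 mice aged 8 weeks, with 3 libraries each of proerythroblasts (Pro), basophilic (Baso), polychromatic (Poly) and orthochromatic (Ortho) erythroblasts. Marrow was depleted of CD45+ cells, and live cells negative for CD45, CD11b and GR1 were sorted, Pro as CD44 high and Ter119 low and the later stages from Ter119+ cells by CD44 against cell size. No genotype or treatment was compared. Ortho replicates 2 and 3 carry only a general erythroblast cell type label and were placed by their titles. The sources used here do not say whether the libraries of a stage came from separate animals, so p-values measure the spread between these libraries, which may be technical.

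The lysosome is the acidic compartment in which cells break down proteins, sugars and lipids delivered by endocytosis and autophagy. Most of its enzymes are made in the endoplasmic reticulum and carried there by the mannose 6-phosphate route, and the V-ATPase, a proton pump in its membrane, sets the low pH at which they work. Maturing red cells clear their mitochondria, ribosomes and other organelles partly through autophagosomes that fuse with lysosomes, and the factors TFEB and TFE3 switch on many lysosome genes through E-box sites in their promoters.

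Because TFEB and TFE3 bind the sequence CACGTG, the promoters of the set were read for it. RefSeq promoter windows of 300 bases, from 250 bases before a transcript start to 50 after it on GRCm38.p6, were matched for 25 of the 30 genes. CACGTG, which reads the same on both strands, stood in a window of 10 of these 25 genes, or 40%, against 8.09% of all 27025 genes with a window. All genes here include those that did not pass the filter on low values. Of the genes with a window that did pass it, 1081 held CACGTG and 7829 did not. The longer TCACGTGA, which contains CACGTG, stood in 6 of 25, or 24%, against 1.12% of all genes. AGATAA, a form of the site bound by the erythroid factor GATA1, was searched on both strands and stood in 4 of 25, or 16%, against 12.7% of all genes. TCACGTGA and AGATAA were not counted among only the genes that passed the filter, as all genes of the set did. A match is a run of letters and does not show that a factor binds there. The stretches below run 5′ to 3′ on the strand of the gene and end before the transcript starts of RefSeq and GENCODE, with each CACGTG in capitals. The stretches of 3 genes with the motif are those of Lamp1 (chr8:13158911-13159160, plus strand), which holds 4 copies, Mcoln1 (chr8:3500269-3500456, plus strand) and Gaa (chr11:119267713-119267886, plus strand).
Lamp1: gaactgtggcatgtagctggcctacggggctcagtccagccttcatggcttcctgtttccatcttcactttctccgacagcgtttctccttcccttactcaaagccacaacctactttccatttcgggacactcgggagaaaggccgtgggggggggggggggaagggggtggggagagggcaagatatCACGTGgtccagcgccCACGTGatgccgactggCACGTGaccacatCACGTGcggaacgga
Mcoln1: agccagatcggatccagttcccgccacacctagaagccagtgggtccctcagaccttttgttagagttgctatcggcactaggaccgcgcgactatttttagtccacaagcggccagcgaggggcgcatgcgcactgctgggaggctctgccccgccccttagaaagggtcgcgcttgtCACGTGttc
Gaa: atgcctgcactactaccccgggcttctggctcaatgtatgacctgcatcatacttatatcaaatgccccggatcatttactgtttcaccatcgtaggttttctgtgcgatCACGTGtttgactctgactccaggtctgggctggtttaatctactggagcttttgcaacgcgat
Those of Cd68 (chr11:69666171-69666420, minus strand), Ctss (chr3:95526536-95526785, plus strand) and Ctsc (chr7:88277835-88278084, plus strand), 3 of the genes that rose most, hold none. The printed genes were picked with their changes known. Not printed are Glb1, which has the motif and rose, and Gusb and Atp6ap1, which lack it and fell.
Cd68: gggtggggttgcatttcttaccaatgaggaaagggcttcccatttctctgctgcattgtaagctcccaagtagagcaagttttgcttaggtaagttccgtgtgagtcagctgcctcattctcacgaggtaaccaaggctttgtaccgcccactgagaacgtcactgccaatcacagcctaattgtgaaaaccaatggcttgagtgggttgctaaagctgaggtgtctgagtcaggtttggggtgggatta
Ctss: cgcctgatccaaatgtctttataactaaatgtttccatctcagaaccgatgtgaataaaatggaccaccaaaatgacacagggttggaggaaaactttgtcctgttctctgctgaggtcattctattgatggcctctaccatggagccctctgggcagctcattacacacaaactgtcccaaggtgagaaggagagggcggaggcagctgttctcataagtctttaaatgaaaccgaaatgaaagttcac
Ctsc: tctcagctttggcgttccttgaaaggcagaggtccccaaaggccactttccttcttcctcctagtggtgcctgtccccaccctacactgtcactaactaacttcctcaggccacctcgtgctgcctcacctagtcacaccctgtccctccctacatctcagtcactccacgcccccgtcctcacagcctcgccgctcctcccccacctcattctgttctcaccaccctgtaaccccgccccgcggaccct

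From Pro to Ortho, 16 of the 30 genes rose and 5 fell, and 9 did not pass the test. The test was limma on log2(FPKM + 1) over the 12994 genes that reached an FPKM of 1 in 3 or more libraries. FPKM, a count of fragments divided by transcript length and library size, is a level per length. A gene is said to have risen or fallen where its Benjamini-Hochberg adjusted p was under 0.05, and to be called where the log2 fold change was also at least 1 in size. Of all genes tested, 22.7% rose and 53.2% fell by the adjusted p alone. The 4 genes of the set that were called, Cd68, Ctsc, Ctsh and Ctss, were all higher in Ortho, where 6.33% of all genes were called higher. With all libraries brought to the same sum (equal sums) none of the 30 was called higher, since these 4 then stood at 0.84, 0.86, 0.78 and 0.85, still past the adjusted p. None of the 30 was called lower, against 23.8% of all genes. The median log2 fold change was 0.34 over the set and -0.43 over all genes tested. Hemoglobin transcripts took 6.98% to 10.7% of the summed FPKM in Pro and 47.2% to 52.6% in Ortho, and the sum itself was 505624 to 526044 in Pro and 655594 to 691033 in Ortho, so that FPKM of the other genes depends on the scaling. With hemoglobin genes left out and libraries rescaled, 23 of the 30 genes rose and 1 fell, while with all libraries brought to the same sum 11 rose and 11 fell.

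**Figure D1:**
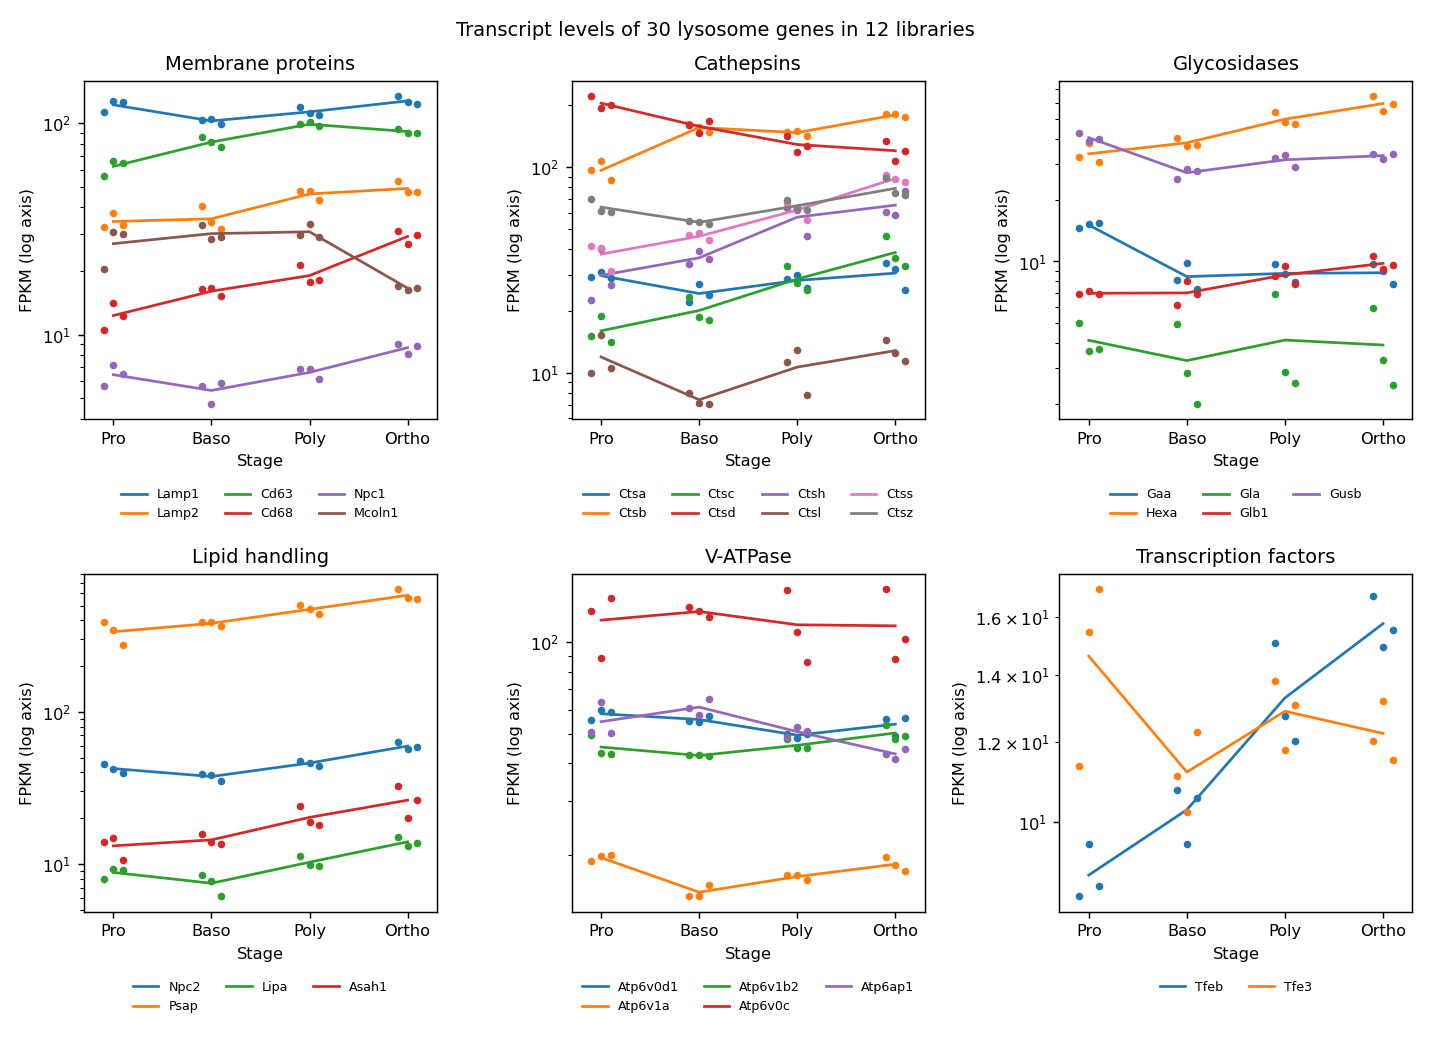
FPKM of the 30 lysosome genes (y axis, logarithmic) in Pro, Baso, Poly and Ortho, in 6 panels by role, with a point for each of the 12 libraries and a line through the stage means. The means of Cd68 and Ctss are higher at each later stage, that of Mcoln1 is 26.9 to 30.7 until Poly and 16.6 in Ortho, and Ctsd goes from 205.2 to 120.4 while Ctsb goes from 96.7 to 179.9.

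Among the membrane proteins, Cd68, Lamp2, Cd63 and Npc1 rose from Pro to Ortho, Mcoln1 fell and Lamp1 did not pass the test. With equal sums 2 rose and 2 fell, and Lamp2 and Npc1, at 0.15 and 0.05 on the log2 scale, no longer passed (adjusted p = 0.213 and 0.678 in limma). CD68, a LAMP family glycoprotein abundant in macrophages, is encoded on chromosome 11 from 69664213 to 69666153 (mm10, as for all positions). Cd68 was at 10.6, 14.1 and 12.3 in Pro, 16.4, 16.5 and 15.2 in Baso, 21.2, 17.8 and 18.0 in Poly, with Ortho at 31.0, 27.0 and 29.5 (replicates 1, 2 and 3). The libraries of the 4 stages did not overlap and stood in the order of maturation. Ortho exceeded Pro by a log2 fold change of 1.19 (standard error, SE, 0.11, adjusted p = 1.23e-06 in limma). Mcoln1, which encodes the calcium channel TRPML1 of the lysosome membrane, lies on chromosome 8 from 3500457 to 3515232. The FPKM of the libraries was 20.5, 30.5 and 29.8 in Pro, 32.9, 28.4 and 28.9 in Baso, 29.7, 33.2 and 29.0 in Poly, with Ortho at 17.0, 16.2 and 16.6. All Ortho libraries lay below those of the other stages, and Mcoln1 fell at the last step, with a log2 fold change of -0.85 for Ortho compared with Poly (SE 0.13, adjusted p = 0.000395 in limma) that lay between -0.70 and -1.02 under the other scalings. In Baso and Poly it had been at 0.17 and 0.20 compared with Pro as deposited (adjusted p = 0.284 and 0.199 in limma) and at 0.48 and 0.54 with hemoglobin left out (adjusted p = 0.00902 and 0.0034 in limma). Compared with Pro, Mcoln1 in Ortho was at -0.65 (adjusted p = 0.000798 in limma), at -0.18 with hemoglobin left out (adjusted p = 0.235 in limma) and at -0.999 with equal sums.

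LAMP1 and LAMP2 are the most abundant glycoproteins of the lysosome membrane. Lamp1 FPKM was 113.7, 127.1 and 126.3 in Pro and 134.2, 126.2 and 122.9 in Ortho, which overlapped, with a log2 fold change of 0.06 (adjusted p = 0.415 in limma) that was -0.30 with equal sums and 0.55 with hemoglobin left out. Lamp2 stood at 34.3 ± 2.74 in Pro, 35.3 ± 4.63 in Baso, 46.3 ± 2.53 in Poly, with Ortho at 49.2 ± 3.39 (SD, n = 3), and its rise of 0.51 on the log2 scale (adjusted p = 0.000603 in limma) passed the test at the step from Baso to Poly, where the log2 fold change was 0.39 (adjusted p = 0.0299 in limma). Cd63, a tetraspanin of late endosomes and lysosomes, rose from 62.6 ± 5.67 in Pro to 99.1 ± 2.04 in Poly (log2 fold change 0.66, adjusted p = 1.52e-05 in limma) and was at 91.5 ± 2.41 in Ortho. Npc1, the cholesterol exporter of the lysosome membrane, was the lowest of these 6 transcripts at 6.45 ± 0.742 in Pro and rose to 8.66 ± 0.508 in Ortho (log2 fold change 0.38, adjusted p = 0.00623 in limma).

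**Figure D2:**
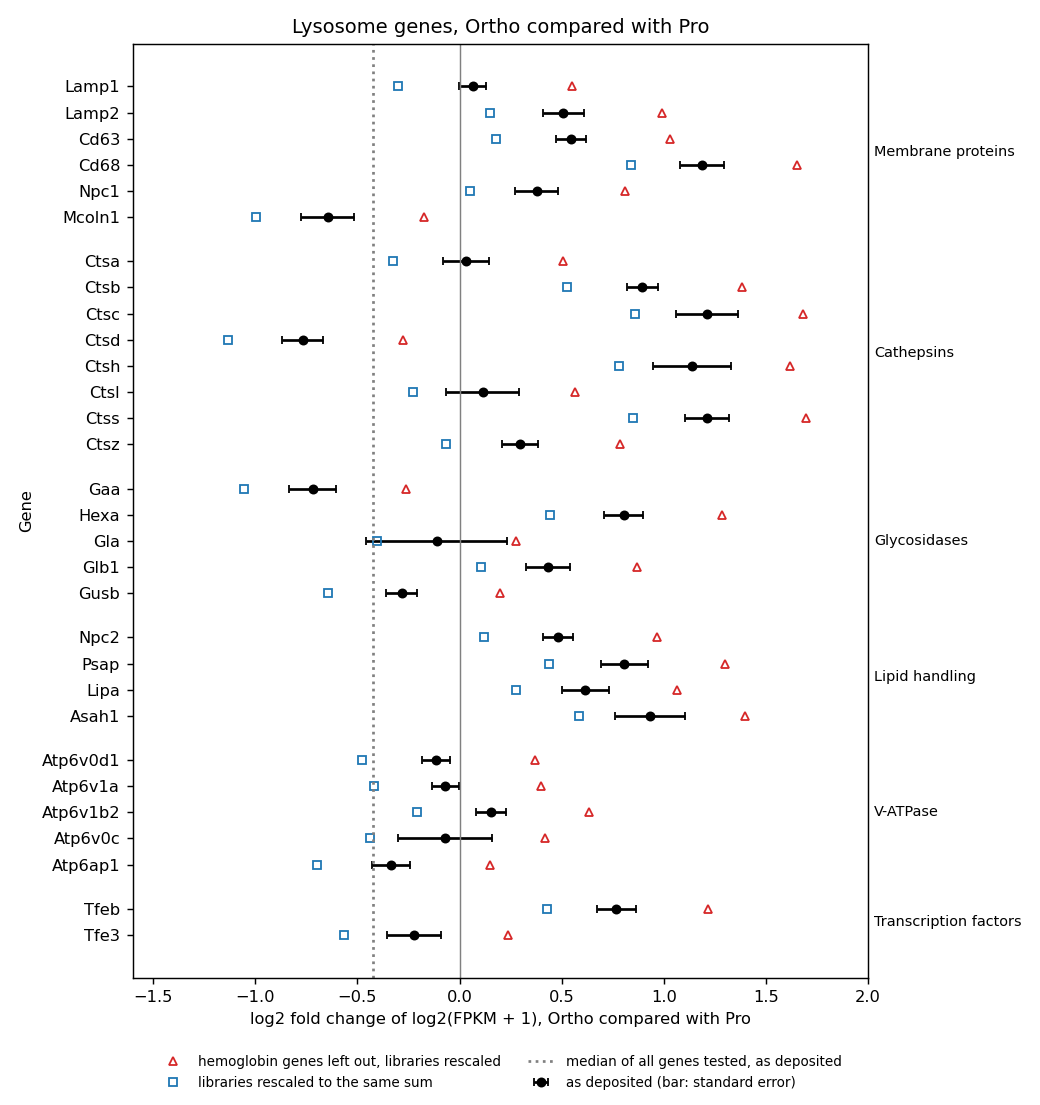
Log2 fold change on the log2(FPKM + 1) scale, Ortho compared with Pro, of the 30 lysosome genes (y axis, by role), with black points as deposited and bars of 1 standard error, blue squares for libraries brought to the same sum and red triangles for hemoglobin genes left out. Cd68, Ctsc, Ctsh and Ctss lie right of 0 and Ctsd, Mcoln1 and Gaa left of 0 under all of these scalings, whereas Lamp1, Ctsa, Ctsl, Ctsz, Atp6v1b2, Gla, Gusb, Atp6v0d1, Atp6v1a, Atp6v0c, Atp6ap1 and Tfe3 change sides.

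Of the 8 cathepsins, the proteases of the lysosome, 5 rose from Pro to Ortho, Ctsd fell and Ctsa and Ctsl did not pass the test, while with hemoglobin left out 7 rose and with equal sums 4 rose and 2 fell. Ctss encodes cathepsin S, a cysteine protease best known from antigen presenting cells, on chromosome 3 from 95526786 to 95556403. The FPKM of the libraries was 41.6, 40.7 and 31.1 in Pro, 46.7, 47.8 and 44.1 in Baso, 67.1, 63.2 and 55.6 in Poly, with Ortho at 91.9, 87.7 and 85.2. No library of a stage overlapped those of another, and Ortho exceeded Pro by a log2 fold change of 1.21 (SE 0.11, adjusted p = 1.17e-06 in limma). Ctsc encodes cathepsin C, which trims and activates serine proteases of granules, on chromosome 7 from 88278085 to 88310888. The FPKM of the libraries was 15.1, 18.8 and 14.1 in Pro, 23.5, 18.7 and 18.1 in Baso, 33.1, 27.2 and 25.4 in Poly, with Ortho at 46.3, 36.3 and 32.9. Pro and Baso overlapped, as did Poly and Ortho, while all Ortho libraries lay above all Pro libraries (log2 fold change 1.21, SE 0.15, adjusted p = 2.26e-05 in limma). Ctsh encodes cathepsin H, an aminopeptidase, on chromosome 9 from 90054152 to 90076089. The FPKM of the libraries was 22.6, 40.0 and 26.8 in Pro, 33.9, 39.2 and 35.7 in Baso, 63.2, 62.0 and 46.4 in Poly, with Ortho at 60.5, 58.8 and 77.0. Pro replicate 2 was well above the other Pro libraries, and Ortho exceeded Pro by a log2 fold change of 1.14 (SE 0.19, adjusted p = 0.000193 in limma). Summed monocyte and dendritic cell marker transcripts were 2.25 times and neutrophil marker transcripts 2.02 times as high in Ortho as in Pro, and their part in these results was not tested.

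Cathepsins B and D, a cysteine and an aspartic protease, changed places. Ctsb FPKM was 96.8, 106.9 and 86.4 in Pro, 162.7, 156.5 and 149.3 in Baso, 149.2, 150.5 and 142.7 in Poly, with Ortho at 181.9, 181.4 and 176.5. At the first step, Baso exceeded Pro by a log2 fold change of 0.69 (SE 0.08, adjusted p = 2.27e-05 in limma), which lay between 0.51 and 1.004 under the other scalings, and Ortho exceeded Pro by 0.89 (adjusted p = 9.19e-07 in limma). Ctsd, on chromosome 7 from 142375911 to 142388038, was at 221.3, 193.3 and 201.0 in Pro, 159.8, 147.5 and 167.3 in Baso, 141.6, 118.7 and 127.0 in Poly, with Ortho at 134.8, 106.9 and 119.5. Poly and Ortho libraries overlapped and lay below all Baso and Pro libraries, with a log2 fold change of -0.77 for Ortho compared with Pro (SE 0.10, adjusted p = 2.55e-05 in limma). Under the other scalings it was -0.28 to -1.14, each past the threshold. Within a library the ratio of 2 genes does not depend on how the library was scaled. Ctsb over Ctsd was 0.473 ± 0.0689 in Pro, 0.991 ± 0.0878 in Baso, 1.15 ± 0.109 in Poly, with Ortho at 1.51 ± 0.176 (SD, n = 3). Ctsd made up 41.8% of the summed FPKM of the 8 cathepsins in Pro and 19.5% in Ortho, and Ctsb 19.7% and 29.3%. These ratios were chosen after the values were seen and are given without a test.

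Of the other cathepsins, Ctsz, a carboxypeptidase, was at 64.0 ± 5.29 in Pro, 54.0 ± 0.833 in Baso and 79.0 ± 8.70 in Ortho (SD, n = 3), with a log2 fold change of 0.30 for Ortho compared with Pro (adjusted p = 0.0092 in limma) that was -0.07 with equal sums. Ctsl, a cysteine protease, fell from 11.9 ± 2.90 in Pro to 7.39 ± 0.478 in Baso (log2 fold change -0.60, adjusted p = 0.0141 in limma, but -0.32 and 0.165 with hemoglobin left out) and stood at 12.8 ± 1.56 in Ortho. Ctsa, the protective protein of the galactosidase and neuraminidase complex, was at 29.7 ± 1.13 in Pro and 30.6 ± 4.73 in Ortho. Its log2 fold change of 0.03 was within the spread between replicates. In the annotation, exons of Ctsd and Ctsl share 808 and 395 bases with other genes on the same strand, Gm49369 and the pseudogene Gm49230, and exons of Ctsa, Ctsb, Ctsl and Ctsz overlap genes on the opposite strand. Outside the cathepsins, exons of Glb1 share 165 bases with Tmppe on the same strand, and exons of Lamp1, Npc1 and Hexa overlap genes on the opposite strand. Whether the counting used strand is not given in the sources used here, so the values of all these genes carry that uncertainty. Cd63 has an annotated pseudogene, Cd63-ps, which may share reads with it.

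**Figure D3:**
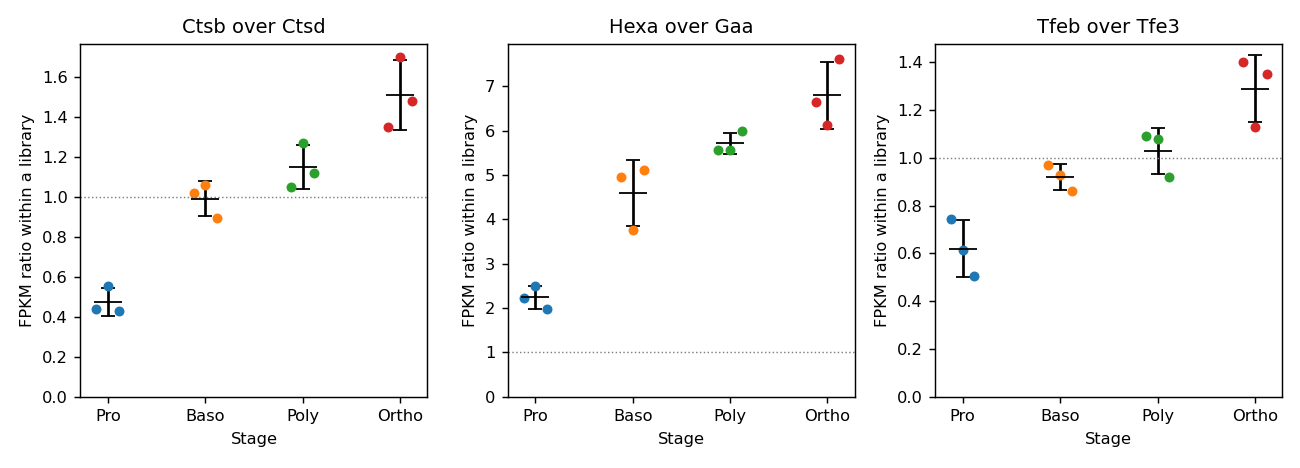
Ratio of the FPKM of 2 genes within a library (y axis) by stage for Ctsb over Ctsd, Hexa over Gaa and Tfeb over Tfe3, with a point for each of the 3 libraries and bars for the mean ± SD. The mean ratio is higher at each later stage in all 3 panels, from 0.473 to 1.51, from 2.24 to 6.79 and from 0.62 to 1.29.

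Hexa and Glb1 rose from Pro to Ortho, Gaa and Gusb fell, although Gusb was at 0.20 and 0.11 on the log2 scale with hemoglobin left out and with libraries centred on their median, and Gla did not pass the test. Hexa, the alpha subunit of beta-hexosaminidase that degrades ganglioside GM2, was at 32.6, 38.0 and 30.6 in Pro, 40.2, 36.9 and 37.4 in Baso, 54.0, 48.2 and 47.3 in Poly, with Ortho at 64.4, 54.8 and 59.2. Ortho and Poly libraries lay above all Baso and Pro libraries, and Ortho exceeded Pro by a log2 fold change of 0.80 (SE 0.09, adjusted p = 1.13e-05 in limma). Gaa, the acid alpha-glucosidase that degrades glycogen, lies on chromosome 11 from 119267887 to 119285454. The FPKM of the libraries was 14.6, 15.2 and 15.4 in Pro, 8.13, 9.85 and 7.32 in Baso, 9.69, 8.65 and 7.91 in Poly, with Ortho at 9.70, 8.96 and 7.76. Gaa fell between Pro and Baso (log2 fold change -0.78, SE 0.12, adjusted p = 0.000157 in limma, and -0.48 to -0.95 under the other scalings), and the 3 later stages overlapped. Hexa over Gaa within a library was 2.24 ± 0.257 in Pro, 4.60 ± 0.746 in Baso, 5.71 ± 0.239 in Poly, with Ortho at 6.79 ± 0.764 (SD, n = 3). Gusb, beta-glucuronidase, likewise fell at the first step, from 40.5 ± 2.10 to 27.2 ± 1.51 (log2 fold change -0.55, adjusted p = 7.84e-05 in limma), and was at 33.0 ± 1.13 in Ortho (log2 fold change -0.28 compared with Pro, adjusted p = 0.00438 in limma). Glb1, the beta-galactosidase, rose from 6.99 ± 0.149 to 9.79 ± 0.727 (log2 fold change 0.43, adjusted p = 0.0029 in limma), a difference that was 0.10 with equal sums (adjusted p = 0.392 in limma). Gla, alpha-galactosidase A, was the lowest transcript of the set at every stage and varied between replicates, from 2.48 to 5.91 in Ortho and from 3.65 to 4.97 in Pro, so that no difference was detectable (log2 fold change -0.11, SE 0.34).

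All 4 genes of lipid handling rose from Pro to Ortho, and with equal sums 3 did, as Npc2 was then at 0.12 on the log2 scale (adjusted p = 0.217 in limma) and Lipa at 0.28. Psap, the precursor of the saposins that present sphingolipids to their hydrolases, was the most abundant transcript of the set at every stage. Its FPKM was 388.1, 345.1 and 276.0 in Pro, 388.7, 391.7 and 365.8 in Baso, 501.1, 475.1 and 440.0 in Poly, with Ortho at 641.3, 562.4 and 549.4. All Ortho libraries lay above those of the other stages (log2 fold change 0.81 compared with Pro, SE 0.12, adjusted p = 5.82e-05 in limma). Psap lay above 98.5% of the genes tested in Pro and 99.5% in Ortho, and its share of the summed FPKM of the 30 genes was 21.3% in Pro and 28.6% in Ortho. Asah1, acid ceramidase, was at 14.0, 14.8 and 10.7 in Pro and 32.4, 20.2 and 26.3 in Ortho (log2 fold change 0.93, SE 0.17, adjusted p = 0.000408 in limma). The Ortho libraries differed widely from each other but stood above all Pro libraries. Lipa, lysosomal acid lipase, rose from 8.81 ± 0.707 to 14.0 ± 0.972 (log2 fold change 0.61, adjusted p = 0.000464 in limma). Npc2, the soluble partner that hands cholesterol to NPC1, rose from 42.4 ± 2.83 to 59.6 ± 3.12 (SD, n = 3; log2 fold change 0.48, adjusted p = 0.0001 in limma). Neither Lipa nor Npc2 passed the test in Baso compared with Pro (log2 fold change -0.22 and -0.17), and both rose from Baso to Poly and from Poly to Ortho. With equal sums Npc2 passed at neither of these later steps (adjusted p = 0.0571 and 0.139 in limma) and Lipa did not pass from Poly to Ortho (adjusted p = 0.15 in limma).

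Of the 5 V-ATPase genes, Atp6ap1 fell from Pro to Ortho, although it was at 0.15 and 0.06 on the log2 scale with hemoglobin left out and with libraries centred on their median, and the other 4 did not pass the test. Their median log2 fold change was -0.07 as deposited, 0.40 with hemoglobin left out (3 rose) and -0.44 with equal sums (4 fell). Atp6ap1, which encodes an accessory subunit needed for assembly of the pump, was at 50.8, 63.5 and 50.3 in Pro, 60.7, 57.7 and 65.3 in Baso, 48.8, 52.6 and 51.2 in Poly, with Ortho at 43.1, 41.2 and 44.7. All Ortho libraries lay below those of the other stages (log2 fold change -0.34 compared with Pro, SE 0.09, adjusted p = 0.00556 in limma). Atp6v1a, the catalytic subunit, fell from 19.6 ± 0.490 in Pro to 15.1 ± 0.775 in Baso (log2 fold change -0.36, adjusted p = 0.000935 in limma, but -0.06 and 0.476 with hemoglobin left out) and stood at 18.7 ± 0.968 in Ortho (SD, n = 3). Atp6v1b2, its partner in the cytosolic domain, and Atp6v0d1, a subunit of the membrane domain, were at 45.3 ± 3.76 and 58.3 ± 2.43 in Pro and at 50.4 ± 2.87 and 53.8 ± 4.13 in Ortho. Their log2 fold changes of 0.15 and -0.11 had adjusted p of 0.0772 and 0.15 in limma. Atp6v0c, the proton-carrying ring subunit, ranged from 88.8 to 139.8 in Pro and from 88.1 to 149.6 in Ortho. It is a gene with 2 annotated pseudogenes, Atp6v0c-ps1 and Atp6v0c-ps2, which may share reads with it, and a difference was not detectable at this spread (log2 fold change -0.07, SE 0.23).

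Of the 2 factors, which belong to the MiT/TFE family and bind the same sites, Tfeb rose from Pro to Ortho and Tfe3 did not pass the test. Tfeb FPKM was 8.43, 9.50 and 8.62 in Pro, 10.8, 9.51 and 10.6 in Baso, 15.1, 12.8 and 12.04 in Poly, with Ortho at 16.8, 15.0 and 15.5. Poly and Ortho libraries lay above all Pro and Baso libraries, and Ortho exceeded Pro by a log2 fold change of 0.77 (SE 0.10, adjusted p = 1.83e-05 in limma). Tfe3 FPKM was 11.4, 15.5 and 17.1 in Pro, 11.1, 10.2 and 12.3 in Baso, 13.8, 11.8 and 13.1 in Poly, with Ortho at 12.04, 13.2 and 11.5. Pro libraries overlapped those of every later stage, with a log2 fold change of -0.22 for Ortho compared with Pro (adjusted p = 0.145 in limma) that was 0.24 with hemoglobin left out. Without Pro replicate 1 it was -0.38 (adjusted p = 0.00659 in limma). Tfeb over Tfe3 within a library was 0.620 ± 0.118 in Pro, 0.919 ± 0.0543 in Baso, 1.03 ± 0.0964 in Poly, with Ortho at 1.29 ± 0.140 (SD, n = 3), and no Pro library overlapped any later one. These are transcript levels, and the activity of both factors is set largely by phosphorylation and entry into the nucleus, which were not measured.

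At the first step more genes of the set fell than rose, as among all genes tested, and at the later ones more rose than fell. Some scalings changed this. With hemoglobin left out 15 rose and 2 fell, and with centred libraries 16 rose and 2 fell, at the first step. With centred libraries also 2 rose and 2 fell between Baso and Poly, and with equal sums 1 rose and 3 fell between Poly and Ortho. In Baso compared with Pro, Cd63, Cd68, Ctsb and Ctss rose and Lamp1, Ctsd, Ctsl, Ctsz, Gaa, Gusb, Atp6v1a and Tfe3 fell, 4 and 8 of 30, beside 14.9% and 42.1% of all genes tested. None was called, against 1.82% of all genes called higher and 8.54% called lower. In Poly compared with Pro, 12 rose and 5 fell, beside 23.3% and 42.7%, and none was called, against 3.59% and 12.8%. The 3 comparisons with Pro share the Pro libraries. The genes named for the later steps come from the fit with stage as the only factor. Between Baso and Poly, Lamp2, Cd63, Ctss, Hexa, Npc2, Lipa and Tfeb rose and none fell, beside 6.58% of all genes that rose and 5.77% that fell. None was called, with 0.0616% of all genes called higher and 0.454% called lower. Between Poly and Ortho, Cd68, Npc1, Ctsb, Ctss, Ctsz, Npc2 and Lipa rose and Mcoln1 fell, beside 4.43% and 21.7% of all genes, and none was called, against 1.05% and 4.81%. Without the block, Ctss, Npc2 and Lipa rose at both of these steps as deposited, and with equal sums none of them did. Baso, Poly and Ortho were taken as paired by replicate number. In a model of these 3 stages with that number as a block, 13 rose and 2 fell in each of the 2 steps. The lists of genes above, and that none fell between Baso and Poly, therefore hold only without the block. The shares of all genes that rose or fell with the block are not given here.

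The scaling moved the whole distribution. Over all genes tested the median log2 fold change, Ortho compared with Pro, was -0.43 as deposited, -0.01 with hemoglobin left out and -0.73 with equal sums, and that of the set was 0.34, 0.80 and -0.01. Of all calls in that comparison, 21% were higher as deposited, 63.4% with hemoglobin left out, 61.6% with libraries centred on their median and 6.16% with equal sums. Relative to the median gene, 22 of the 30 rose and 2, Ctsd and Gaa, fell, and 10 were called, all higher. Relative to it, Cd68 was at 1.58, Ctss at 1.61, Ctsb at 1.29, Psap at 1.20, Lamp1 at 0.46, Mcoln1 at -0.25 (adjusted p = 0.112 in limma) and Ctsd at -0.37 (adjusted p = 0.00273 in limma). Fewer cells of a type and less RNA per cell cannot be told apart in these bulk libraries.

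Transcripts of several other blood cells were higher in Ortho than in Pro, and most of those of megakaryocytes and platelets lower. A list of 14 neutrophil genes, led by S100a9, S100a8 and Ngp, summed to an FPKM of 7725 to 9424 in Pro, 16760 to 20010 in Poly and 14950 to 18700 in Ortho, although GR1+ and CD11b+ cells were gated out. All 14 were tested, and 13 rose from Pro to Ortho. The sum of 10 monocyte and dendritic cell genes, led by Ly6c2, Fn1 and F13a1, was 445 to 568.3 in Pro and 1056 to 1191 in Ortho, and 9 of these 10 rose. The 16 macrophage genes summed to 19.3 to 23.0 in Pro and 38.6 to 49.1 in Ortho. Of these, 9 were under an FPKM of 1 in every library, among them Cd5l, Spic, Mrc1, Siglec1, Marco and C1qb. The most abundant, Csf1r, Adgre1 and Vcam1, had means of 18.2, 5.82 and 2.94 over all 12 libraries. Of the 5 that were tested, 3 rose and none fell, while Vcam1 was at -0.31 on the log2 scale (adjusted p = 0.114 in limma). The 9 B cell genes, led by Cd74, Cd79b and Cd79a, had a sum of 91.3 to 130.8 in Pro and 209.5 to 264.2 in Ortho. The 6 eosinophil, basophil and mast cell genes, led by Prg2, Prss34 and Mcpt8, stood in Ortho at 1.56 times their Pro mean, and the 7 T and NK genes, of which 5 were under 1 everywhere and Nkg7 led with Klrb1c and Cd3d far below it, at 1.50 times. The 8 megakaryocyte and platelet genes, led by Itga2b, Pf4 and Gp9, were at 0.472 times. Of the 7 that were tested, 5 fell and 1, Itga2b, rose (log2 fold change 0.39, adjusted p = 0.0338 in limma). With equal sums 11 of the 14 neutrophil, 9 of the 10 monocyte and 8 of the 9 B cell genes rose, and none of these fell. Of the macrophage genes 2 then rose and 1 fell, and of the platelet genes none rose and 5 fell. The sum of the 11 erythroid genes, led by Hba-a1, Hbb-bs and Slc4a1, was at 7.34 times, and that of the 30 lysosome genes at 1.30 times. Of the 11 erythroid genes, 6 rose and 4 fell, with a median log2 fold change of 0.29. Klf1, Gata1 and Epor were called lower, at -2.19, -2.04 and -1.66. From Poly to Ortho, Cd68 and Ctss rose, and Ctsc and Ctsh did not pass the test (adjusted p = 0.0743 and 0.546 in limma). The neutrophil and B cell sums of these stages overlapped, the latter at 218.5 to 221.9 in Poly. The monocyte sum was 810.1 to 887 in Poly and 1056 to 1191 in Ortho. That of the macrophage genes was 33.1 to 38.4 in Poly and 38.6 to 49.1 in Ortho. What part these cells have in the rise of Cd68, Ctss, Ctsc, Ctsh and the other genes was not tested.

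**Figure D4:**
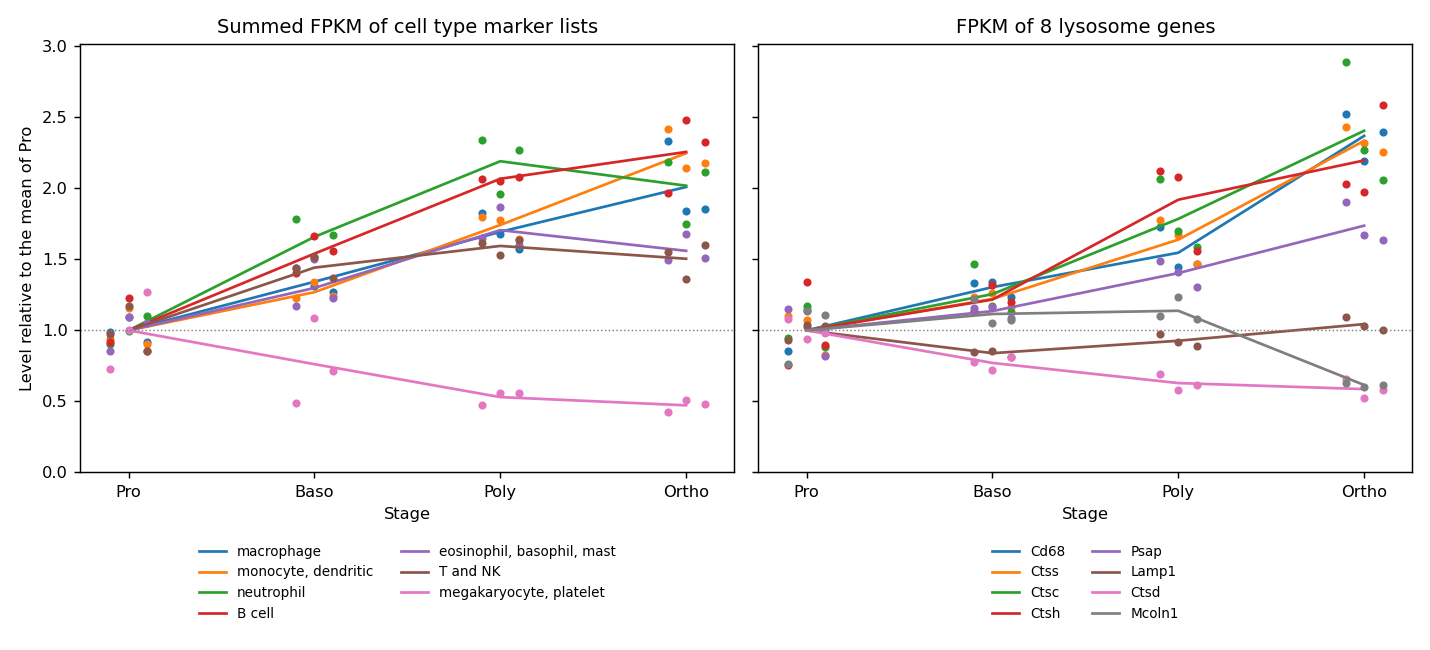
Level relative to the mean of Pro (y axis, linear) by stage, with a point for each library and a line through the stage means, for the summed FPKM of 7 lists of marker genes of other blood cells (left) and for the FPKM of 8 lysosome genes (right). In Ortho the neutrophil, monocyte, macrophage and B cell sums are at 2.01 to 2.26 times Pro, near the levels of Cd68, Ctss, Ctsc and Ctsh, while Ctsd, Mcoln1 and the platelet sum lie below 1.

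Further lysosome genes outside the set were taken in 5 lists of 103 genes, of which 99 were tested, to be read beside the 22.7% of all genes that rose and the 53.2% that fell. The list of other hydrolases, of which 28 genes were tested, also holds an activator, Gm2a, and a protease inhibitor, Cst3. Of these 28, 15 rose, Gm2a and Cst3 among them, and 6 fell from Pro to Ortho. Their median log2 fold change was 0.35, beside -0.43 over all genes. With equal sums 9 rose and 8 fell. Of the 20 other membrane proteins 6 rose and 7 fell (median 0.17), and with hemoglobin left out 11 rose and 3 fell. Of the 12 other V-ATPase genes 2 rose and 6 fell (median -0.21), and with hemoglobin left out 7 rose and none fell. Of 20 genes for sorting to the lysosome 15 fell and 2 rose (median -0.54), and of 19 genes of the TFE family and its mTORC1 control 12 fell and 2 rose (median -0.33). With hemoglobin left out these became 6 and 5 for sorting and 2 and 6 for the TFE list, so the TFE list changed direction with the scaling, and the sorting list, whose median stayed below 0 in each, was then at -0.06. Of the 99 genes, 5 were called higher and 7 lower, beside 6.33% and 23.8% of all genes. Of the 5 called higher, 3 reached a mean FPKM of 10 in Pro or Ortho, namely Ctsf, a cysteine protease (4.26 ± 0.684 in Pro, 17.0 ± 1.23 in Ortho, log2 fold change 1.79, adjusted p = 2.06e-07 in limma), Gm2a, the activator that hands ganglioside GM2 to beta-hexosaminidase (1.23), and Slc11a1, a metal transporter of phagocyte lysosomes (1.22). With equal sums Gm2a and Slc11a1 were at 0.88 and 0.89 and no longer called.

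The largest falls among the 7 called lower, by the same rule, were those of Acp5, Ap1b1, Slc11a2 and Abcb6, which were also called lower under every other scaling. Acp5, the tartrate-resistant acid phosphatase, was at 141.8, 139.2 and 160.1 in Pro, 88.5, 156.2 and 189.8 in Baso, 37.2, 39.1 and 45.9 in Poly, with Ortho at 8.89, 10.5 and 10.3. Its Baso libraries spread widely, and all Ortho libraries lay far below the rest (log2 fold change -3.77, SE 0.22, adjusted p = 4.41e-08 in limma). Ap1b1, a subunit of the AP-1 adaptor that loads vesicles at the Golgi, was at 127.8, 131.2 and 123.8 in Pro and 20.15, 20.01 and 19.9 in Ortho (log2 fold change -2.61, adjusted p = 1.16e-09 in limma). Slc11a2, which encodes the iron transporter DMT1, and Abcb6, a porphyrin transporter, stayed within 30.2 to 50.6 until Poly and were at 10.2 ± 0.465 and 11.4 ± 0.270 in Ortho (SD, n = 3), with log2 fold changes of -2.12 and -1.81 compared with Pro.

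The set was also divided by the motif CACGTG in a promoter window, which was done after the values were seen, and the difference between the groups was not tested. Of the 10 with the motif, 1, Glb1, rose from Pro to Ortho and 3, Mcoln1, Ctsd and Gaa, fell, with a median log2 fold change of -0.09. The 6 others, Lamp1, Ctsa, Ctsl, Gla, Atp6v0d1 and Atp6v1a, did not pass the test. Of the 15 without it, 11 rose and 2, Gusb and Atp6ap1, fell, with a median of 0.54. Over all genes tested with a window, 20.7% of the 1081 with the motif rose and 56.9% fell, against 24.2% and 53.6% of the 7829 without it, with medians of -0.50 and -0.41. Glb1 was the only gene with the motif to rise as deposited, whereas with hemoglobin left out Lamp1, Ctsa, Ctsl, Atp6v0d1 and Atp6v1a rose as well. Cd68, Ctss and Ctsc, whose stretches are printed above, and Tfeb itself are among the genes without the motif in these windows. For Npc1, Ctsb, Ctsh, Asah1 and Atp6v1b2 no window was used here.

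**Figure D5:**
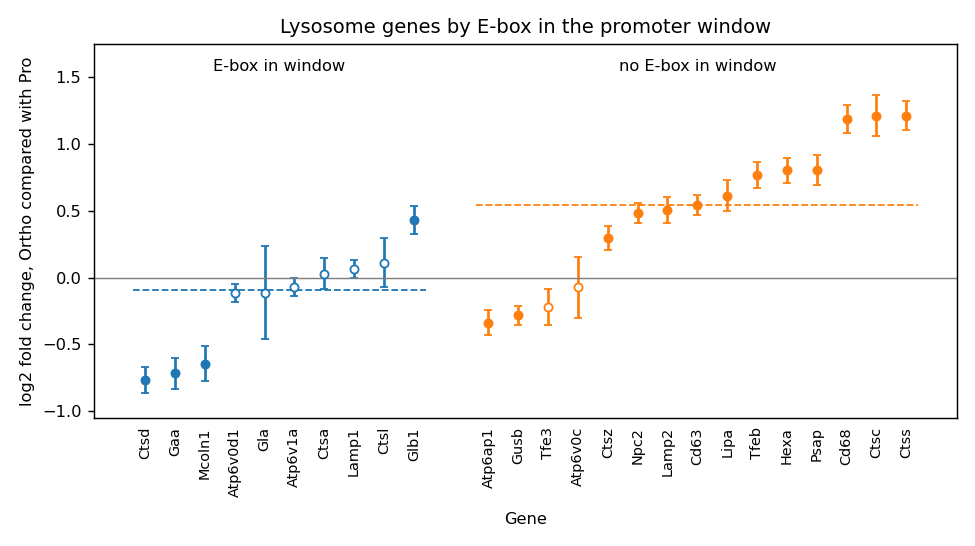
Log2 fold change on the log2(FPKM + 1) scale, Ortho compared with Pro (y axis), of the 25 lysosome genes with a RefSeq promoter window, split by the motif CACGTG, with bars of 1 standard error, filled points for an adjusted p under 0.05 and dashed lines at the medians of -0.09 and 0.54. The values are as deposited, and Lamp1, Ctsa, Ctsl, Ctsz, Gla, Gusb, Atp6v0d1, Atp6v1a, Atp6v0c, Atp6ap1 and Tfe3 change sign with the scaling.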

How the data were processed

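RNA of 12 libraries, 3 each of Pro, Baso, Poly and Ortho, was compared. The authors trimmed the reads (Cutadapt, Trimmomatic), mapped them to mm10 (HISAT2), counted them (SAMtools, featureCounts) and deposited 1 FPKM per gene and library. The tool behind the FPKM, the annotation and tool versions are not given in the sources used here. The labels name Trizol RNA and a NEBNext Ultra kit, whereas the methods name cell lysates and a KAPA kit. The file had 29839 lines, with 1 repeated identifier, so 29838 genes.

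The 12994 genes that reached an FPKM of 1 in 3 or more libraries were fitted in limma (version 3.58.1, R version 4.3.3), using log2 of FPKM with a pseudocount of 1, stage as the only factor, a variance trend and all 12 libraries together. Two-sided p-values were corrected by Benjamini-Hochberg across the genes fitted. The pseudocount makes fold changes of low genes too small. The DESeq2 analysis of the authors, which ran on counts, was not repeated. Steps of whole fragments were looked for in 1819 low genes, by their ratios to Pro replicate 1 pooled over the other libraries. Of these ratios 3.65% fell in the commonest bin. Pooling libraries of unlike depth can blur such steps, so this check cannot decide whether whole fragments are recoverable. Depth was not recovered and is unknown here, and no counting error is given. FPKM is relative within a library, and more hemoglobin means lower values of other genes.

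All 30 genes are described. Of 5 lists of other lysosome genes, up to 4 called genes in each direction are named, those with the largest change that reach a mean FPKM of 10 in Pro or Ortho, and of each marker list the 3 most abundant. The members and lists were chosen with earlier results of these data known. Libraries with equal replicate numbers deviated together from their stage means among Baso, Poly and Ortho (correlations of 0.156 to 0.319), and these stages were taken as paired from the values alone. With Pro the correlations were 0.00524 to 0.0968. Promoter windows came from RefSeq (GRCm38.p6), and positions and overlaps from GENCODE M21 on mm10. Figures were drawn with matplotlib 3.10.9 in Python 3.11.15. Alternatives were another pseudocount, no filter, 3 scalings, the replicate block, the adjusted p alone and leaving out each library.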

Additional observations from a re-analysis of the deposited data

How the results depend on the processing

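The counts of lysosome genes called were 0 (Baso), 0 (Poly) and 4 (Ortho) compared with Pro, 0 between Baso and Poly and 0 between Poly and Ortho, and by the adjusted p alone 12, 17, 21, 7 and 8. With hemoglobin left out, 1, 4 and 11 were called in Baso, Poly and Ortho compared with Pro. With libraries centred on their median, 2 were called in Poly and 10 in Ortho. With equal sums, none was called higher and 2 were called lower in Ortho compared with Pro, and 1 was called lower between Poly and Ortho. What part the different share of hemoglobin between stages has in these differences was not tested. A pseudocount of 0.1, no filter and the replicate block in all 12 libraries changed none of the counts called, while by the adjusted p alone no filter gave 9, 16, 21, 1 and 6 and this block 14, 17, 22, 11 and 10. The block within Baso, Poly and Ortho left both later steps at 0. Leaving out 1 library gave 0 to 0 in Baso, 0 to 1 in Poly (1 without Pro replicate 2 and 1 without Poly replicate 3), 3 to 5 in Ortho and 0 to 0 at the later steps. In Ortho compared with Pro, log2 fold changes of single genes turned sign with equal sums for Lamp1 (-0.30), Ctsa (-0.33), Ctsl (-0.23), Ctsz (-0.068) and Atp6v1b2 (-0.21). They turned with hemoglobin left out and with centred libraries, in this order, for Gla (0.28 and 0.28), Gusb (0.20 and 0.11), Atp6v0d1 (0.37 and 0.28), Atp6v1a (0.40 and 0.33), Atp6v0c (0.42 and 0.32), Atp6ap1 (0.15 and 0.060) and Tfe3 (0.24 and 0.18). Leaving out 1 library gave -0.057 to 0.16 for Ctsa, below 0 without Ortho replicate 1 or 2, -0.39 to 0.10 for Gla, above 0 without Pro replicate 1 or Ortho replicate 3, and -0.29 to 0.089 for Atp6v0c, above 0 without Pro replicate 3 or Ortho replicate 2. The cause of these single turns was not tested. The depth of the libraries is unknown, so the precision of low genes such as Gla is known only from the spread of 3 libraries.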
